A study of Mus musculus with 4 samples.

Results

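The transcription factors that drive epithelial-mesenchymal transition (EMT) and the filament gene vimentin were read in RNA sequencing of mouse prostate. The group holds 7 genes, Twist1, Twist2, Snai1, Snai2, Zeb1, Zeb2 and Vim, taken by symbol from the 23242 rows of the deposited table, and all 7 were found there. Mice 27 and 28 were wild-type FVB animals (ERG negative), and mice 26 and 29 were FVB animals homozygous for TMPRSS2:ERG (ERG positive). Each gave 1 library of ventral and dorsal prostate lobes. The transgene is a bacterial artificial chromosome with the TMPRSS2 locus and a human ERG cassette behind a floxed GFP, and Cre protein was injected to give the fusion. ERG is a transcription factor of the ETS family. The homozygotes come from 1 sub-line, and the labels give no age. Levels are bulk values, so fewer cells of a type and less RNA per cell cannot be told apart.

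EMT is the program by which epithelial cells loosen their junctions and take on features of mesenchymal cells. The Snail proteins (Snai1, Snai2) and Zeb proteins (Zeb1, Zeb2) are zinc finger repressors that bind E-box sequences in promoters such as that of E-cadherin, and the Twist proteins (Twist1, Twist2) are basic helix-loop-helix (bHLH) factors that bind related sequences together with E proteins. Vimentin is the intermediate filament of mesenchymal cells and a standard readout of the program. In normal tissue these genes are transcribed mainly in stroma, including fibroblasts, vessels and some immune cells, and Snai2 also in basal epithelium.

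In homozygotes Twist2 transcripts were 3.18 times as abundant as in wild type, and Twist2 was the only 1 of the 7 genes to pass the test. Twist1, its close relative, was low in both genotypes, with overlapping values. Values are FPKM, fragments per kilobase of transcript scaled to library size, divided by a scaling factor for each library (scaled FPKM), and the test is limma on log2(scaled FPKM + 1) across all genes, passed at an adjusted p under 0.05. The filter required a mean of 1 scaled FPKM or more, which 5 of the 7 genes met and Twist1 and Snai1 did not. Over the 11762 genes tested 7.65% passed, 4.65% as higher and 3.00% as lower, and nothing particular to these genes is read from 1 of 5. Their median log2 fold was -0.04, against -0.003 over all genes tested.

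The promoter windows of the Twist pair are shown because this is the pair of related genes whose response differed most. Each is the 250 bases before the start annotated by RefSeq (GRCm38.p6, the same coordinates as mm10), on the plus strand, upstream of the first exon. Capitals mark GGAA, the core letters bound by ETS factors, on either strand.
Twist2, chr1:91801211-91801460: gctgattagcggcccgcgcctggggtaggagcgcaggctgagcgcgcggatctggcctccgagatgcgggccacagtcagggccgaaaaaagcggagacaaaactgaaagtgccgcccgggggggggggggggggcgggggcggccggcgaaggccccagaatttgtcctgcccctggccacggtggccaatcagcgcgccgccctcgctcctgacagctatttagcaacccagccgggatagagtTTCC
Twist1, chr12:33957421-33957670: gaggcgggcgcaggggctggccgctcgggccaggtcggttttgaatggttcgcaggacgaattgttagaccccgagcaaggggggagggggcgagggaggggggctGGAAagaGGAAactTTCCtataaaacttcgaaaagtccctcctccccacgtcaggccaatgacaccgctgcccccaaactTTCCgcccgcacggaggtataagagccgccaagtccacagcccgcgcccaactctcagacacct
The Twist2 window held 1 GGAA and the Twist1 window 4, and neither held the E-box letters CANNTG. Of 32536 RefSeq promoter windows of 250 bases, 93.4% held GGAA on either strand, with a median of 3 matches, and 66.2% held CANNTG. Such matches describe letters, not binding. Windows were read for 5 of the 7 genes and not for Snai2 or Zeb1, which does not show that these genes lack an annotated start.

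Among the 4 libraries, sequencing depth was similar. Between 11541 and 11854 genes reached 1 FPKM. Fragment numbers given here are estimates, from the steps between low FPKM values, and they are coarse (steps were binned at 0.2, log2). Mouse Erg gave 1.06 and 0.926 scaled FPKM in wild type against 0.881 and 1.12 in homozygotes, and it does not check the labels because the cassette is human. Seminal vesicle transcripts, from a neighbouring gland, set the genotypes and also the wild types apart. The geometric mean of 9 of 12 markers (with 1 added to each) was 1687 and 144 scaled FPKM in wild-type mice 27 and 28, against 9.03 and 9.54 in homozygous mice 26 and 29. Svs2, Svs4 and Svs5 were left out, as each held a value read as missing. Svs4 was at 2337 in mouse 28 against 190 and 292 in mice 26 and 29, and Svs5 at 20315 against 6311 and 11693. Of the 9, 6 fell (median log2 fold -7.07), against 3.00% over all genes tested. Fewer did so without mouse 26 or without mouse 29. Their sums, carried by Pate4 in all but mouse 27, were 42713 and 11082 against 4353 and 8185. Among 5 secretory genes of the prostate lobes tested, 2 fell, also with each mouse left out. Spink3 went from 38646 and 30638 to 97.1 and 8.70 (log2 fold -10.12, limma adjusted p = 0.00475), and Azgp1 from 140 and 165 to 16.2 and 13.9 (-3.26, limma adjusted p = 0.000315). Msmb was at 4240 and 4729 against 28100 and 14924 (2.19, limma adjusted p = 0.0626). Tgm4 and Sbp of the same list held values read as missing and were not tested. Sbp was missing in both wild types and at 151 and 4.91 in mice 26 and 29. The part of these differences between libraries in the values of Twist2 and the other 6 genes was not tested. Lymphocyte markers were near the floor, with 8 genes summing to between 2.69 and 3.45 scaled FPKM.

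The order of levels can be read between genes, since FPKM is per length. In wild type Vim was far above the rest at 61.0 ± 2.51 scaled FPKM (SD, n = 2), followed by Zeb1 at 3.87 ± 0.282 (SD, n = 2) and Twist2 at 2.61 ± 0.267 (SD, n = 2). Snai2 (2.07 ± 0.218, SD, n = 2) and Zeb2 (2.00 ± 0.363, SD, n = 2) overlapped each other, and Twist1 (0.843 ± 0.0565, SD, n = 2) and Snai1 (0.541 ± 0.110, SD, n = 2) were lowest. In homozygotes Twist2 moved past Zeb1 to stand next to Vim, at 8.29 ± 0.855 (SD, n = 2), and the order of the other 6 was the same. Only the neighbours Snai2 and Zeb2, in wild type, had overlapping values in that order.

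**Figure D1:**
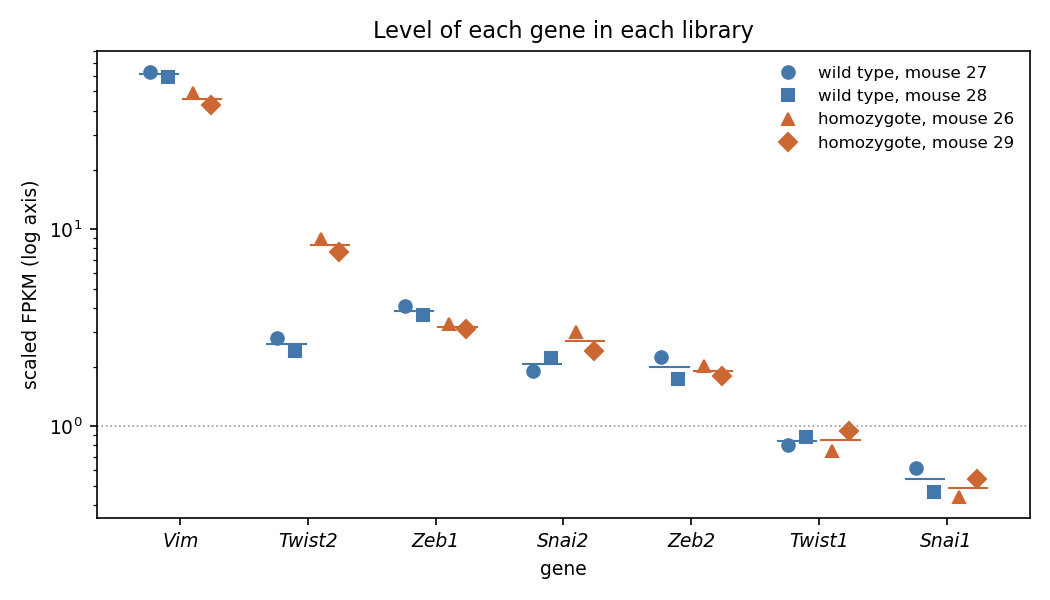
Scaled FPKM (log axis) of each gene in each library, with short lines at the group means and a dotted line at 1 scaled FPKM, the minimum mean for a test. Twist2 sits between 2.42 and 2.80 in wild type and between 7.69 and 8.90 in homozygotes, while Twist1 and Snai1 lie under the dotted line in all 4 libraries.

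Twist2 (Entrez 13345, chromosome 1, 91801477 to 91848027, mm10) encodes a bHLH factor of dermal and other mesenchyme that is also known to restrain cytokine genes. Its scaled FPKM was 2.80 in mouse 27, 2.42 in mouse 28, 8.90 in mouse 26 and 7.69 in mouse 29. Both homozygotes were above both wild types, and the gap between genotypes was several times the gap between mice of 1 genotype. The log2 fold was 1.36 (SE 0.127, 95% interval 1.05 to 1.68, limma adjusted p = 0.00375). An exact two-sided permutation test over the 6 arrangements gave p = 0.333, the smallest that 2 against 2 mice allow. By size of fold, Twist2 ranked 159 of the 547 genes that rose. In the authors' deposited table, whose folds were read as log2 from their values, Twist2 has 1.76 (q = 2.43e-06). By q in the authors' deposited table, 14.2% of 14374 genes are under 0.05, and Twist2 is the 1 such gene among the 7. The others there are Snai2 at 0.36 (q = 0.686), Zeb1 at -0.21 (q = 0.737) and Vim at -0.35 (q = 0.332), with Twist1, Snai1 and Zeb2 at q-values of 0.937 and above.

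The call for Twist2 held without each mouse in turn, with log2 folds from 1.27 to 1.46. It was lost only when no filter on low values was used (limma adjusted p = 0.0903), a setting in which 0.543% of 23210 rows passed.

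Twist1 (Entrez 22160, chromosome 12, 33957671 to 33959831) is the family member most used as an EMT driver in carcinoma models. Wild-type mice 27 and 28 had 0.803 and 0.883 scaled FPKM, and homozygous mice 26 and 29 had 0.753 and 0.951. The homozygous values enclosed the wild-type values, and the log2 difference was 0.005 (exact permutation p = 1). At the estimated depth these levels correspond to roughly 55 to 84 fragments per library.

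A ratio of paired genes within a library does not depend on scaling. It was 3.48 and 2.74 in wild-type mice 27 and 28, and 11.8 and 8.09 in homozygous mice 26 and 29. The ratio was thus higher in both homozygotes, by 1.66 on the log2 scale against an SD of 0.324 within genotypes. The exact permutation p was 0.333, or 0.500 adjusted over the 3 pairs of related genes compared.

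**Figure D2:**
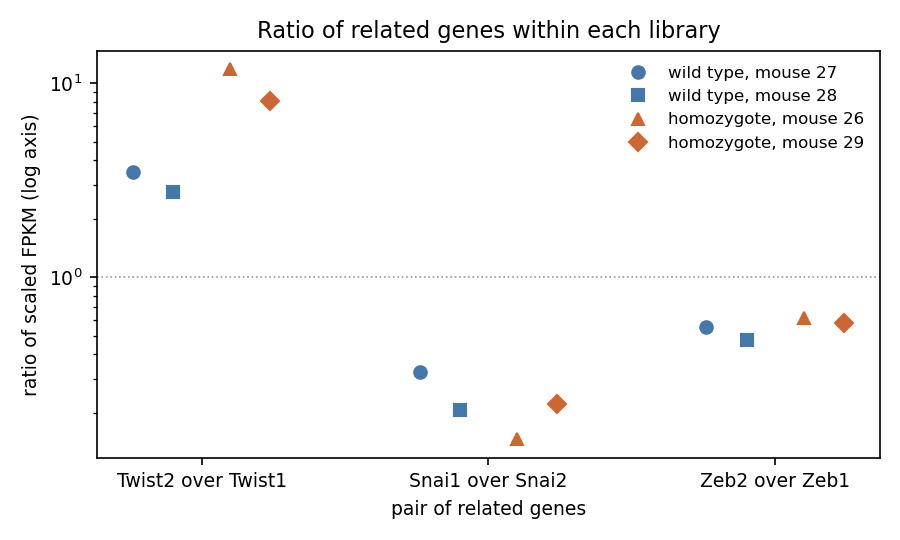
Ratio of scaled FPKM (log axis) of 3 pairs of related genes in each library, with a dotted line at a ratio of 1. The Twist2 to Twist1 ratio is between 2.74 and 3.48 in wild type and between 8.09 and 11.8 in homozygotes, whereas the Snai1 to Snai2 ratios of the genotypes overlap.

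In the Snail pair, Snai1 was under the filter and not tested, and Snai2 did not pass. Snai1 (Entrez 20613, chromosome 2, 167538227 to 167542811), the founding repressor of E-cadherin in this family, measured 0.618 and 0.463 scaled FPKM in wild type (mice 27, 28) against 0.440 and 0.539 in homozygotes (mice 26, 29). The groups overlapped, and the log2 difference was -0.05 (exact permutation p = 0.667), at roughly 33 to 47 fragments per library. Snai2 (Entrez 20583, chromosome 16, 14705859 to 14709382), also called Slug, measured 1.91 and 2.22 in wild type against 3.01 and 2.41 in homozygotes. Both homozygotes were above both wild types, but the gap between genotypes was smaller than the gap between mice of 1 genotype. The log2 fold was 0.27 (SE 0.138, 95% interval -0.07 to 0.61, limma adjusted p = 0.348). Krt14, a keratin of basal epithelium where Snai2 is also active, measured 5.98 and 8.02 against 10.3 and 9.51 (log2 fold 0.46, limma adjusted p = 0.160), whereas the groups overlapped for Krt5, Krt15 and Trp63 and for the sum of these 4 basal markers (109 and 216 against 220 and 184). With all mice none of the 4 passed. Without mouse 28 basal markers passed as higher, but leaving out a wild-type mouse raised the calls over all genes too. The part of basal cells in the Snai2 values was not tested. The Snai1 to Snai2 ratio was 0.323 and 0.208 in wild type and 0.146 and 0.223 in homozygotes (exact permutation p = 0.667).

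The Zeb pair did not pass either. Zeb1 (Entrez 21417, chromosome 18, 5591860 to 5775468) measured 4.07 and 3.67 scaled FPKM in wild type (mice 27, 28) against 3.30 and 3.10 in homozygotes (mice 26, 29). Both homozygotes were below both wild types, with a log2 fold of -0.21 (SE 0.115, 95% interval -0.50 to 0.07, limma adjusted p = 0.375). Zeb2 (Entrez 24136, chromosome 2, 44983634 to 45113279) was at 2.25, 1.74, 2.03 and 1.79 in mice 27, 28, 26 and 29. Its groups overlapped, and its log2 fold was -0.04 (SE 0.140, 95% interval -0.39 to 0.31, limma adjusted p = 0.928). The sign of that value changed with unscaled FPKM (0.02) and with quantile normalization (0.03). Both Zeb rows overlap other rows of the table (1 for Zeb1, 2 for Zeb2), so some fragments may be shared between them. The Zeb2 to Zeb1 ratio was 0.553 and 0.474 in wild type and 0.616 and 0.579 in homozygotes, higher in both, a difference of 0.22 on the log2 scale (exact permutation p = 0.333).

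Vim (Entrez 22352, chromosome 2, 13574311 to 13582826), by level the main transcript of the group, measured 62.8 and 59.2 scaled FPKM in wild type (mice 27, 28) against 49.3 and 42.5 in homozygotes (mice 26, 29). Both homozygotes were below both wild types, the opposite direction to Twist2. The homozygous mean was 0.752 of the wild-type mean, and the log2 fold of -0.41 did not pass (SE 0.122, 95% interval -0.71 to -0.10 before adjustment, limma adjusted p = 0.129). With single mice left out the log2 fold of Vim ran from -0.51 to -0.30, and over all alternatives its limma adjusted p lay between 0.0612 and 0.709. Counting all 7 genes, Twist2 and Snai2 were higher and Zeb1 and Vim lower in both homozygotes, and the other 3 overlapped. Groups do not overlap in 51.1% of tested genes (25.3% higher, 25.8% lower) and in 48.5% of all rows above 0 in a library, so 4 of 7 is near the background.

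**Figure D3:**
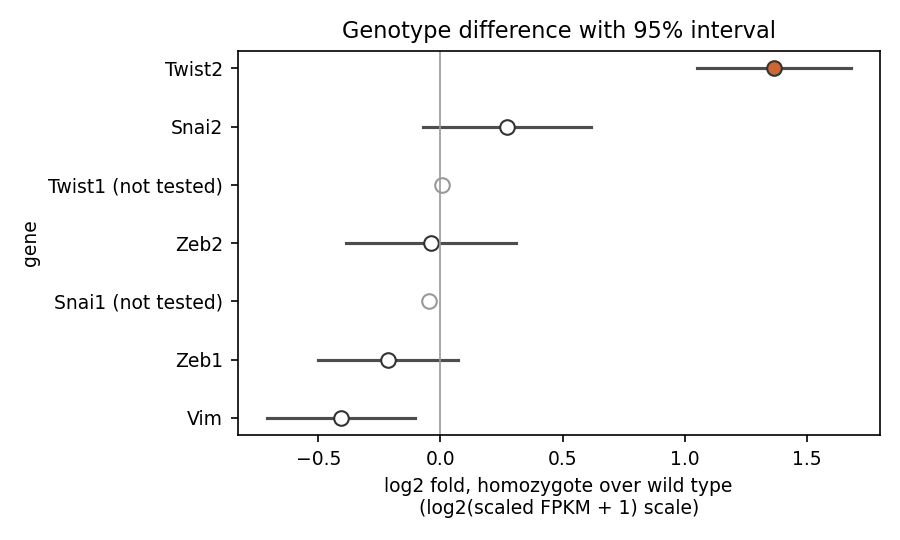
Log2 fold of each gene, homozygote over wild type, on the log2(scaled FPKM + 1) scale, with unadjusted 95% intervals from limma for the 5 genes tested. The filled point, Twist2 at 1.36, is the gene that passed, and the 2 pale points without intervals are the genes under the filter.

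Twist genes and Vim are stromal, so stromal markers were read beside them. The 12 fibroblast markers, led by Dcn, summed to 323 and 348 scaled FPKM in wild type and 373 and 314 in homozygotes, and none of them passed (median log2 fold -0.10). With a wild-type mouse left out, where more genes pass over all genes, Thy1 and Pi16 (without mouse 27) or Dpt (without mouse 28) passed as lower. Divided by the geometric mean of those markers (with 1 added to each), Twist2 was 0.205 and 0.157 in wild type and 0.637 and 0.599 in homozygotes. That is a difference of 1.78 on the log2 scale (exact permutation p = 0.333), so the rise of Twist2 was also present per fibroblast signal. Vim per fibroblast signal was 4.61 and 3.84 in wild type and 3.53 and 3.31 in homozygotes, still lower in both.

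Smooth muscle markers were lower in homozygotes, with none passing singly under the main settings. The 10 markers, led by Acta2, summed to 2758 and 1893 scaled FPKM in wild type and 1354 and 1591 in homozygotes. All 10 lay below 0 (median log2 fold -0.58). With all mice 0 passed limma under the main settings and at most 2 under the alternatives, Des with quantile normalization among them. Some passed as lower without mouse 28, where more genes pass over all genes. Vim per smooth muscle signal was 0.637 and 0.822 in wild type and 0.918 and 0.705 in homozygotes. On this scale the groups overlapped and the lower Vim was no longer seen. That signal, the geometric mean of the markers, was itself 98.5 and 72.1 against 53.7 and 60.3. Divided by it, Twist1, Twist2, Snai1, Snai2, Zeb1 and Zeb2 were all higher in both homozygotes. Undivided, Twist1, Snai1 and Zeb2 overlapped and Zeb1 was lower. Their log2 differences per smooth muscle signal were 0.57, 0.43, 0.51 and 0.29. The 10 endothelium markers also lay below 0, at a median of -0.19, with sums of 45.7 and 47.8 against 37.7 and 40.7. Tested markers of adipocytes (5), Schwann cells (3) and skeletal muscle (2) all lay below 0 too, at medians of -0.35, -0.67 and -0.37. For adipocytes and skeletal muscle the sums of the genotypes overlapped. Among these genes only Ncam1, a Schwann cell marker, passed as lower (limma adjusted p = 0.0417), where 3.00% fell over all genes tested. The part of smooth muscle, vessels and these other cells in the Vim values was not tested.

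Most mast cell markers moved in the direction of Twist2. The 10 markers, led by the tryptase gene Tpsab1, summed to 56.5 and 64.3 scaled FPKM in wild type and 341 and 282 in homozygotes. Of 8 tested 6 rose, against 4.65% over all genes: Cpa3, Tpsab1, Tpsb2, Cma1, Mcpt4 and Fcer1a. Kit and Gata2, which other cells also transcribe, were at 0.42 and -0.08 and did not pass. Ms4a2 and Hdc were under the filter and not tested. Ms4a2 gave 0.0578 and 0 in wild type against 1.53 and 1.03 in homozygotes. For Hdc the groups overlapped, at 1.55 and 0.387 against 0.662 and 1.31. The count lay between 5 and 7 with single mice left out and was 3 without a filter on low values. The 11 myeloid markers, led by Lyz2, summed to 138 and 83.7 in wild type and 151 and 129 in homozygotes, and none passed with all mice. Some passed as higher without mouse 27, where more genes pass over all genes. Whether mast cells have a part in the Twist2 values was not tested.

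**Figure D4:**
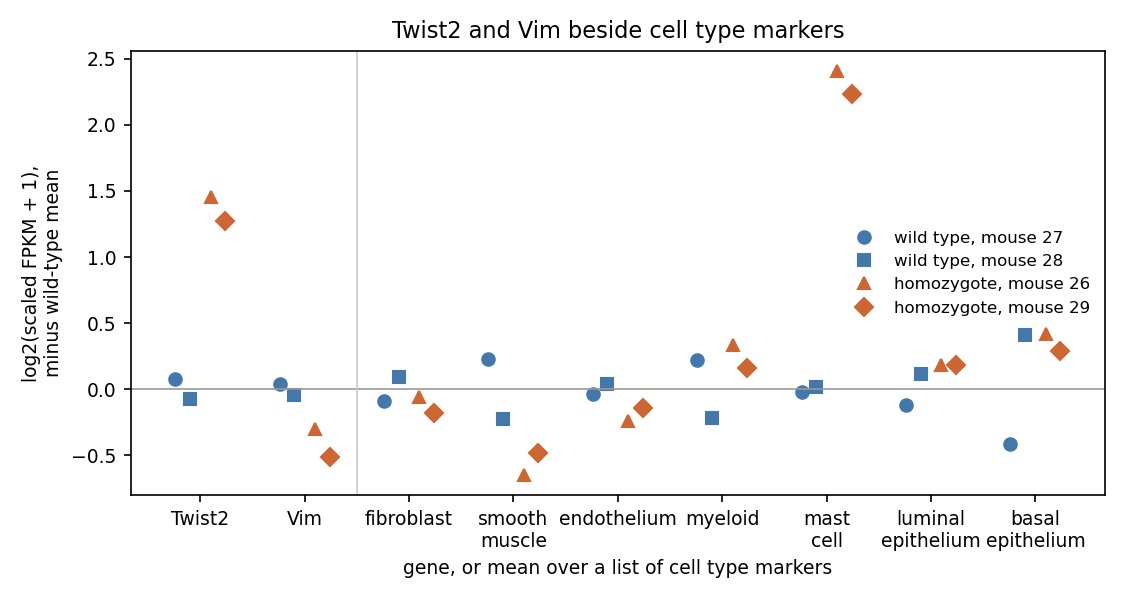
Log2(scaled FPKM + 1) of Twist2 and Vim, and the mean of the same over each list of cell type markers, minus the wild-type mean, in each library. Twist2 and the mast cell markers are high in both homozygotes, and the fibroblast markers stay near 0. Vim lies below 0 with the smooth muscle and endothelium markers. Adipocyte, Schwann cell and skeletal muscle markers, also below 0 in the mean of homozygotes, are not drawn.

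Genes around the 7 were read from lists of partners, inducers and targets. Over all genes tested 4.65% rose and 3.00% fell, the shares to set beside each count. Without a wild-type mouse more genes pass over all genes. Twist proteins pair with E proteins (Tcf3, Tcf4, Tcf12), which Id proteins sequester. Of 8 such genes tested, 0 rose and 1 fell: Id4, an Id family member, from 10.5 and 10.7 scaled FPKM to 6.10 and 7.23 in mice 26 and 29 (-0.60, SE 0.119, limma adjusted p = 0.0409). The median was -0.21. Without mouse 27 Id3 also passed as higher and Hand2 as lower. Tcf3, an E protein partner, gave 8.45, 10.2, 8.81 and 10.3 in mice 27, 28, 26 and 29, with overlapping groups.

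Of the corepressors and turnover factors of Snail and Zeb, 1 of 11 tested rose and 0 fell. Ezh2, the histone H3 methyltransferase of Polycomb complexes, went from 2.85 and 2.87 scaled FPKM in wild type to 7.01 and 6.51 in homozygotes (1.01, SE 0.109, limma adjusted p = 0.00631). The median was 0.14, and Ctbp2 also passed as higher without mouse 27 or mouse 28. The microRNA genes Mir200a, Mir200b, Mir200c, Mir141 and Mir429, whose products repress Zeb1 and Zeb2, are listed at 0 in all 4 libraries, which says nothing of the mature microRNAs.

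Among other EMT transcription factors 0 of 8 tested rose and 1 fell. That was Klf8, a Krüppel-like repressor of E-cadherin, from 2.37 and 2.11 to 0.844 and 1.07 scaled FPKM (-0.73, SE 0.131, limma adjusted p = 0.0315), and without mouse 28 Sox9 also passed, as higher. Among 15 inducing ligands, receptors and Smads, 1 rose and 0 fell. Tgfb1, the ligand best known for inducing the program, went from 6.08 and 7.97 in wild type to 28.3 and 27.1 in homozygotes (1.85, SE 0.142, limma adjusted p = 0.00201). Its relatives did not pass: Tgfb2 was at -0.60 (limma adjusted p = 0.0784) and Tgfb3 at -0.33 (limma adjusted p = 0.430), and of the receptors Tgfbr1 was at 0.23, Tgfbr2 at -0.23 and Tgfbr3 at 0.19 (limma adjusted p = 0.314, 0.442 and 0.683). Without mouse 27 Tgfb2 passed as lower and the growth factor Hgf as higher, and without mouse 28 Tgfb3 passed as lower.

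Epithelial genes were read from 2 lists. Over all genes tested 3.00% fell, so a count of 0 in lists of this size is near the background. Of 18 junction and identity genes tested, 1 rose and 0 fell, with a median of 0.12. The gene that rose was Epcam, an epithelial adhesion molecule, from 263 and 245 scaled FPKM to 442 and 437 (0.79, SE 0.145, limma adjusted p = 0.0328). Cdh1, which encodes E-cadherin and is the textbook target of Snail, Zeb and Twist, gave 62.7 and 92.6 in wild type and 85.2 and 93.2 in homozygotes (0.22, SE 0.201, limma adjusted p = 0.617). Of 11 factors that guard the epithelial state none passed (median -0.06), and Rab25 (0.53, limma adjusted p = 0.0632) and Elf3 (-0.41, limma adjusted p = 0.194) came nearest. These counts turned on the wild types. Without mouse 27 genes of both lists passed in both directions. Those lower were Llgl2, Tjp3, Dsp and Jup among junction genes and Ovol1, Grhl3 and Elf3 among guardian factors. Without mouse 28 junction genes passed only as higher, Cdh1 among them. In both settings more genes pass over all genes.

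Mesenchymal readouts form the opposite list. Of 13 tested, 0 rose and 2 fell (15.4%), with a median of -0.10. Over all genes tested 4.65% rose and 3.00% fell, so 0 risen of 13 is near the background. Nothing particular to the list is read from 2 genes. S100a4, also called fibroblast-specific protein, went from 29.8 and 25.5 scaled FPKM to 13.7 and 11.1 (-1.10, SE 0.142, limma adjusted p = 0.0111). Itga5, the fibronectin receptor subunit, went from 6.97 and 6.52 to 3.16 and 2.14 (-1.10, SE 0.162, limma adjusted p = 0.0171). Fn1, fibronectin itself, gave 8.47 and 13.4 in wild type and 5.53 and 5.02 in homozygotes (-0.90, limma adjusted p = 0.0677), and it passed as lower without mouse 27 or mouse 28, while the N-cadherin gene Cdh2 was under the filter, between 0.144 and 0.628 in the 4 libraries. Without mouse 29 the list had 0 calls. Of 10 other intermediate filament and linked genes tested none passed, with a median of -0.14. Des, which encodes the muscle filament desmin, gave 285 and 185 in wild type and 127 and 132 in homozygotes (-0.83, limma adjusted p = 0.0977). Without mouse 28 Krt5 and Krt14 passed as higher and Des and Synm as lower, and without mouse 27 Prph and Krt19 passed as lower.

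**Figure D5:**
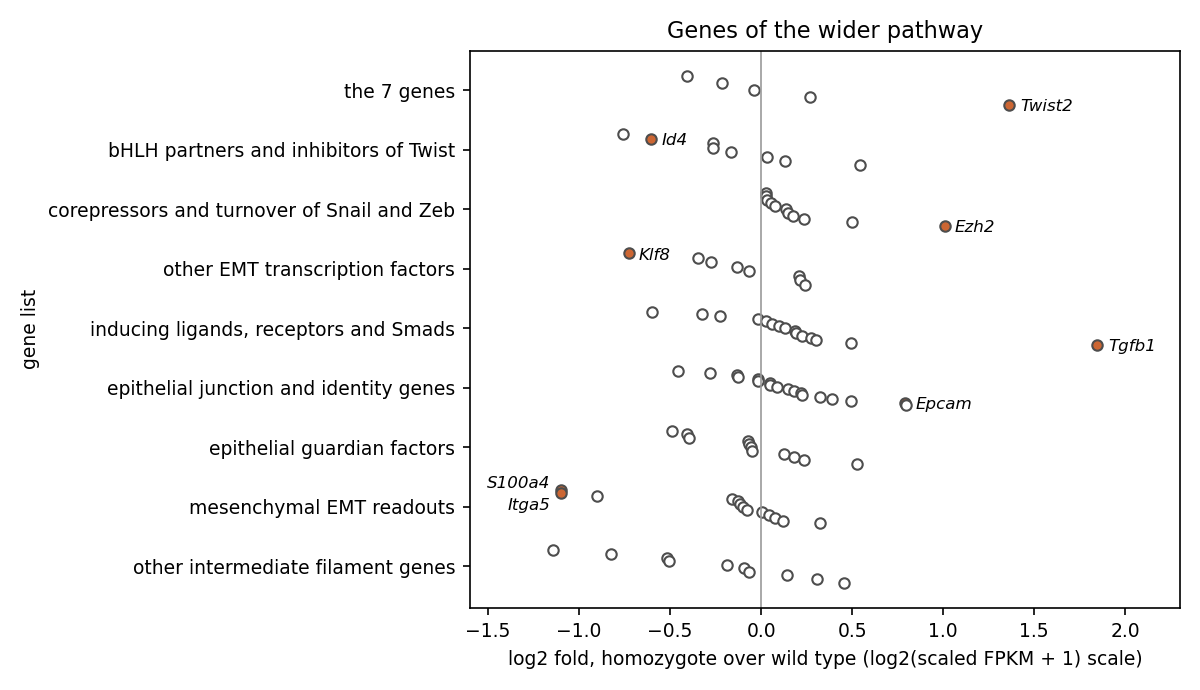
Log2 fold, homozygote over wild type, of each tested gene in the 7 and in 8 lists around them, with genes that passed limma filled and named. Twist2, Tgfb1, Ezh2 and Epcam are the filled points above 0, and Id4, Klf8, S100a4 and Itga5 those below.

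Several of these calls were lost with a mouse left out, which also leaves 1 mouse in a genotype. Over all genes, fewer pass without a homozygous mouse and more without a wild-type mouse. By limma adjusted p, those of Id4 (0.400 and 0.138) and Klf8 (0.230 and 0.108) were lost without mouse 26 and without mouse 29. That of Ezh2 was lost without mouse 26 (0.0586), and those of S100a4 (0.0599) and Itga5 (0.0733) without mouse 29. That of Epcam was lost without mouse 28 (0.0572), mouse 26 (0.310) or mouse 29 (0.248). The folds kept their direction, and that of Epcam stayed between 0.74 and 0.80, that of Ezh2 at 0.96 and that of Id4 between -0.71 and -0.50 where the call was lost. Tgfb1, like Twist2, passed without each mouse in turn. Without a filter on low values all 7 of these list genes missed the threshold, with limma adjusted p from 0.0745 (Ezh2) to 0.189 (Itga5), and with unscaled FPKM Id4 (0.121) and Klf8 (0.0563) did.

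The genes with profiles most like each member were taken as the 3 with the smallest distance between mean-centred log2 values over the 4 libraries. For Twist2 these were Fam105a (distance 0.0567), the bile acid synthesis gene Hsd3b7 (0.0791) and Cd38, an ectoenzyme of NAD metabolism (0.0880). All 3 rose, by 1.31, 1.33 and 1.32 on the log2 scale, which follows from their choice by likeness to Twist2. Within a distance of 0.3 lay 60 of the other 11761 genes. For Vim they were S100a10, a partner of annexin (0.0375), 1810064F22Rik (0.0542) and Tmem37 (0.0569), with 1196 genes within 0.3. For Snai2 they were Gltscr2, Pcbp1 and Glt1d1, for Zeb1 Smc5, Ednrb and Eln, and for Zeb2 Krcc1, Gtpbp10 and Timm17b. Within 0.3 of Snai2, Zeb1 and Zeb2 lay 2393, 4494 and 4981 genes, so their profiles are common ones over 4 libraries.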

How the data were processed

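RNA was measured in 4 libraries, 2 per genotype, grouped by their labels. The authors deposited 1 FPKM value per gene and library, a unit read from the values, and also, per the file headers, their comparison of the genotypes as a fold, p-value and q-value. Per the submitters' processing notes TopHat 1.3, Cufflinks 1.3 and mm10 were used; for settings, annotation and strand the sources used here give nothing. A top value of 99999 was read as missing, though it may be a cap on high values. FPKM were divided by median-of-ratios factors (0.921, 1.03, 1.01 and 1.04, in the order 27, 28, 26, 29). Those whose mean reached 1 were fitted as log2(scaled FPKM + 1) in limma 3.58.1 (R 4.3.3, trend, Benjamini-Hochberg over 11762 genes), the residual degrees of freedom being 2 and the prior ones 3.62. The fit was tested on simulated data. Fold changes on this scale understate those of low genes. Starts were raised by 1. Per the labels each library is a separate mouse. Limma p-values rest on the spread between 2 mice per genotype together with a spread shared across genes. The shared spread carries more weight, 3.62 against 2 degrees of freedom. Estimated depth was 45 to 52 M fragments per library; depth as such is not in the files.

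The members and lists were chosen with earlier results of these data known. Named are the 7 genes, called genes of each list (otherwise the 2 with the largest moderated statistic), the highest marker of each cell type and the 3 most alike genes; others were chosen after their values were seen. Alternatives were each mouse left out, the authors' deposited comparison, a robust trend or none, a minimum mean of 5 or none, quantile normalization, unscaled FPKM and a pseudocount of 0.1. Transcripts of the human cassette were not analysed here.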

Additional observations from a re-analysis of the deposited data

How the results depend on the processing

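Of 323 comparisons of a result with an alternative, 244 kept their direction and call or stayed within the limits set. The cause of the others was not tested, except that fewer genes are tested at a minimum mean of 5. Unscaled FPKM shifted the median gene by 0.07 on the log2 scale.

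Twist2 kept a log2 fold of 1.36 without a filter but not its call (adjusted p = 0.0903). Zeb2 turned to 0.0161 with unscaled FPKM, 0.0310 with quantile normalization, 0.02 in the authors' deposited comparison, and up to 0.0874 with a mouse left out (from -0.16). Per smooth muscle in place of fibroblast signal, log2 differences became 0.57 (Twist1), 2.24 (Twist2), 0.43 (Snai1), 0.95 (Snai2), 0.29 (Zeb1), 0.51 (Zeb2) and 0.15 (Vim).

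Over all genes, 900 were called, 547 higher and 353 lower. Without a filter these were 126, 90 and 36, and by the authors' deposited comparison 2034, 1012 and 1020. Lower calls were 185 with unscaled FPKM and 231 at a minimum mean of 5. With a mouse left out, calls ran from 355 (without mouse 26) to 2028 (without mouse 27), higher from 216 to 995 and lower from 139 to 1033.

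Without a filter, list calls became 0 in Twist partners, corepressors, other EMT factors, inducers, epithelial junctions and mesenchymal readouts. At a minimum mean of 5 they were 0 in corepressors and other EMT factors and 1 in mesenchymal readouts. With unscaled FPKM they were 0 in Twist partners and other EMT factors and 1 in guardian factors, with quantile normalization 1 in guardian factors and 1 in intermediate filaments, and with a robust trend 2 in Twist partners. With a mouse left out, calls ran from 0 to 3 in Twist partners, 0 to 2 in corepressors, 0 to 2 in other EMT factors, 1 to 3 in inducers, 0 to 6 in junctions, 0 to 4 in guardian factors, 0 to 3 in mesenchymal readouts and 0 to 4 in filaments. List medians moved to 0.21 (other EMT factors) and 0.18 (inducers) at a minimum mean of 5 and to 0.20 (inducers) with unscaled FPKM. With a mouse left out they ran from -0.23 to -0.0788 in Twist partners, -0.18 to 0.0710 in other EMT factors and -0.0260 to 0.21 in inducers. In guardian factors the median turned from -0.21 without mouse 27 to 0.11 without mouse 28.

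No paired analysis was possible because the genotypes share no mouse or replicate number. Twist1 and Snai1, under the filter, rest on few fragments, and an adjusted p that misses the threshold there does not show equal levels.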

Other observations

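Genes within 500 kb are given here for 6 of the 7, all but Snai1. With all mice none of the 7 tested neighbours of Twist2 passed limma, with log2 folds from -0.54 (Per2) to 0.32 (Hes6). The nearest tested, Hdac4, 84.7 kb away, gave 1.41, 2.06, 1.61 and 1.70 scaled FPKM in mice 27, 28, 26 and 29. The 1 tested neighbour of Twist1, the histone deacetylase gene Hdac9, 412 kb away, was at 8.64 and 8.20 in wild-type mice 27 and 28 and at 2.11 and 2.13 in homozygous mice 26 and 29. Its log2 fold was -1.59 (SE 0.107, limma adjusted p = 0.00131, at most 0.0465 over the alternatives), while the values of Twist1 itself overlapped. With all mice no tested neighbour of Snai2 (3), Zeb1 (4), Zeb2 (1) or Vim (5) passed. Over all genes tested 7.65% passed, so 0 in sets of this size is near the background. These neighbours were named after their values were seen.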
